A study of Mus musculus with 2 samples.

Results

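The genes described here carry FGF-ERK and Nodal signalling in mouse embryonic stem cells (mESCs). They were *Fgf4*, *Fgf5*, *Fgfr1*, *Dusp6*, *Spry2*, *Spry4*, *Nodal*, *Tdgf1*, *Lefty1* and *Lefty2*, and their probes were found by matching each spot's accession to the gene symbol. These 10 genes had 14 probes, among 24021 genes and 33010 probes measured on both arrays. The genes were chosen by their log2 ratios in an earlier look at the same contrast, so their own ratios are given as a description, with no test.

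Gene expression was measured in mESCs labelled AIMP3f/f;cre-ERT2, in which loxP sites flank the *AIMP3* alleles and tamoxifen (4-OHT) activates the Cre recombinase. AIMP3-depleted cells received 2 μM 4-OHT for 4 days in medium with LIF, in 2 replicates, and control cells received ethanol for the same time. Both groups carried the floxed alleles and the Cre, and no cells without Cre were given 4-OHT, so loss of *AIMP3* cannot be told apart from an effect of 4-OHT or of active Cre. RNA of each AIMP3-depleted replicate (Cy5) was hybridized to its own Agilent 2-colour array against 1 pool of RNA from both control replicates (Cy3), which counts as 1 control sample.

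The dyes were not swapped, so a gene-specific difference between dyes cannot be told apart from the treatment. Both arrays lay on 1 slide, and no spot was saturated. Nothing in the labels says that the replicates came from separate cultures, so a p-value here measures the spread between these samples, which may be technical, and precision is limited by how few arrays there are. Per the labels the cells were usually kept on MEF feeder layers, whereas the methods place cells given drugs in medium conditioned by MEFs, so whether the RNA holds feeder cells is not settled. In bulk RNA, fewer cells of a type and less RNA per cell cannot be told apart. *Eef1e1*, the gene that encodes AIMP3, had control levels (normalized log2 intensity) of 12.12 and 12.18 on the arrays of replicates 1 and 2, against 11.22 and 11.28 in AIMP3-depleted cells. Its log2 ratio was -0.90 ± 0.0067 (SD, n = 2), which is 1.87-fold lower (adjusted p = 5.09e-05, limma with Benjamini-Hochberg adjustment).

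FGF ligands bind receptor tyrosine kinases, which signal through adaptor proteins, Ras, Raf, MEK and ERK, and ERK in turn switches on genes that restrain the pathway, such as the Sprouty genes and the ERK phosphatase gene *Dusp6*. Nodal is a ligand of the TGF-β family that signals through activin receptors together with a co-receptor of the EGF-CFC family, and the SMAD proteins downstream activate *Nodal* itself and its secreted antagonists, the Lefty proteins. In mESCs, FGF-ERK signalling is known for moving cells out of the naive state and towards lineage commitment, and Nodal is known for its activity in the pluripotent epiblast.

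*Fgf4* and *Tdgf1*, both abundantly expressed in naive mESCs, were lower in AIMP3-depleted cells on both arrays, whereas *Nodal* was higher. Under loess the receptor gene *Fgfr1* and the ERK feedback genes *Dusp6*, *Spry2* and *Spry4* lay close to 0 (0.27 to 0.39 under median centring), and the 2 Lefty genes lay on opposite sides of it, although *Lefty2* was near 0 under median centring. Of the 10 genes, 6 had a positive and 4 a negative mean log2 ratio, where 52.7% and 47.3% of all genes did. The median of the 10 was 0.059 beside 0.015 over all genes. None was over 1.5-fold higher, where 5.52% of all genes were, and 2 (*Fgf4* and *Tdgf1*) were over 1.5-fold lower, where 0.791% of all genes were. In both directions together, 6.32% of the 24021 genes were over 1.5-fold with an unadjusted p under 0.05 by limma. At any fold, 60.5% of all genes had an unadjusted p under 0.05 by limma and 24.5% by the methods' t-test, so such a p alone was common. These shares stand beside the counts as background only, since the same contrast chose the genes.

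Over all genes, 1327 were higher and 190 lower under loess normalization. Centring each array on its median instead gave 2823 and 65, and the processed signals of the scanner software gave 1942 and 771. The median log2 ratio of all genes was 0.015 under loess and 0.18 under median centring, so each log2 ratio below is also given relative to that median where the scaling changes the picture.

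**Figure D1:**
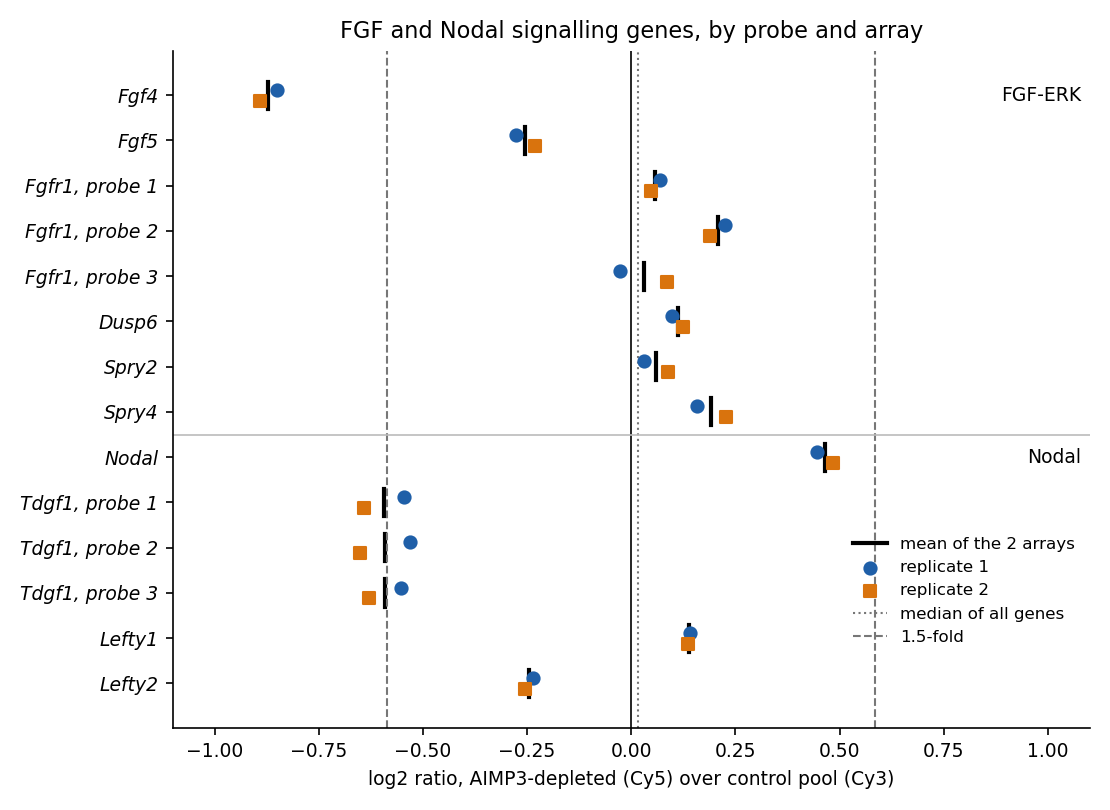
Log2 ratio of AIMP3-depleted cells (Cy5) over the control pool (Cy3) for each of the 14 probes, with a circle for replicate 1, a square for replicate 2 and a bar for their mean. Dashed lines mark 1.5-fold and the dotted line the median of all genes. The means of *Fgf4* and of the 3 *Tdgf1* probes lie beyond the lower dashed line, *Nodal* lies highest at 0.46, and the ERK feedback genes lie between 0 and 0.23.

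The signal of the 14 probes was 12.2 to 755 times the local background, and all of them were well above background in all 4 channels. The SD between the arrays was 0.0029 to 0.085 on the log2 scale, with a median of 0.030 over these probes, and the median over all genes was 0.048. The error that the scanner software gives for a single ratio was larger, at 0.20 to 0.22 on the log2 scale for these probes. In 13 of the 14 probes the control and AIMP3-depleted channels did not overlap across the arrays. The share of all probes without overlap was not computed, and the control readings on both arrays came from the same RNA pool. Only 3634 of the 24021 genes had log2 ratios of opposite signs on the arrays, so the same sign on both was common. Separation of the groups, here and below, is therefore given as a description only.

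*Fgf4* encodes the main FGF ligand of the inner cell mass and of mESCs. Its control levels were 15.92 and 15.78 on the arrays of replicates 1 and 2, and the AIMP3-depleted levels were 15.07 and 14.89. Both AIMP3-depleted samples lay below both readings of the control pool, which differed by 0.14 from each other. The log2 ratios were -0.85 and -0.89, with a mean of -0.87 ± 0.028 (SD, n = 2), which is 1.83-fold lower. *Fgf4* was the lowest of the 10 genes, at -0.89 relative to the median of all genes under loess. Under median centring its log2 ratio was -0.47, short of 1.5-fold, and -0.65 relative to the median of all genes.

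*Fgf5* encodes the FGF ligand that marks the epiblast after implantation. The control levels were 9.82 and 9.87, and the AIMP3-depleted levels 9.54 and 9.64. Here too the AIMP3-depleted samples lay below the control on both arrays, but by a much smaller step than for *Fgf4*. The log2 ratios were -0.28 and -0.23, with a mean of -0.25 ± 0.032 (SD, n = 2). Under median centring the log2 ratio was -0.071, near 0, and -0.25 relative to the median of all genes. Under loess both FGF ligand genes were therefore lower in AIMP3-depleted cells, 1 of them past 1.5-fold.

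*Fgfr1* encodes the FGF receptor that mESCs express most strongly. On its brightest probe the control levels were 14.28 and 14.29, and the AIMP3-depleted levels 14.34 and 14.34. The groups did not overlap, and under loess the step between them was small. The log2 ratios were 0.068 and 0.048, and the mean was 0.058 ± 0.014 (SD, n = 2). The other probes gave mean log2 ratios of 0.21 ± 0.027 and 0.030 ± 0.080. On the latter the groups overlapped, because the ratios were -0.027 and 0.087. Under median centring the brightest probe gave 0.38, and 0.20 relative to the median of all genes, against 0.043 under loess. Under loess the 3 probes differed by 0.18, near the median range of 0.20 among the 1245 genes with exactly 3 probes, of which 49.4% had a range under 0.2.

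The ERK feedback inhibitors *Dusp6*, *Spry2* and *Spry4* were slightly higher in AIMP3-depleted cells under loess. Under median centring their log2 ratios were 0.37, 0.27 and 0.39, and 0.19, 0.086 and 0.21 relative to the median of all genes. *Dusp6* encodes a cytoplasmic phosphatase that dephosphorylates ERK, and its transcript is a common readout of ERK activity. Its control levels were 13.35 and 13.38, and its AIMP3-depleted levels 13.45 and 13.50. Both AIMP3-depleted samples lay above both control readings, and the mean log2 ratio was 0.11 ± 0.019 (SD, n = 2).

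*Spry2* and *Spry4* encode Sprouty proteins, intracellular inhibitors of receptor tyrosine kinase signalling. The *Spry2* control levels were 10.84 and 10.82, and the AIMP3-depleted levels 10.87 and 10.91. These groups were separated by less than the difference between the 2 AIMP3-depleted samples, and the mean log2 ratio was 0.059 ± 0.041 (SD, n = 2). The *Spry4* control levels were 10.55 and 10.49, and the AIMP3-depleted levels 10.71 and 10.72. *Spry4* was the highest of the 3 feedback genes on both arrays, with log2 ratios of 0.16 and 0.23 and a mean of 0.19 ± 0.049 (SD, n = 2). Whether these ratios bear on those of *Fgf4* and *Fgf5* was not tested.

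**Figure D2:**
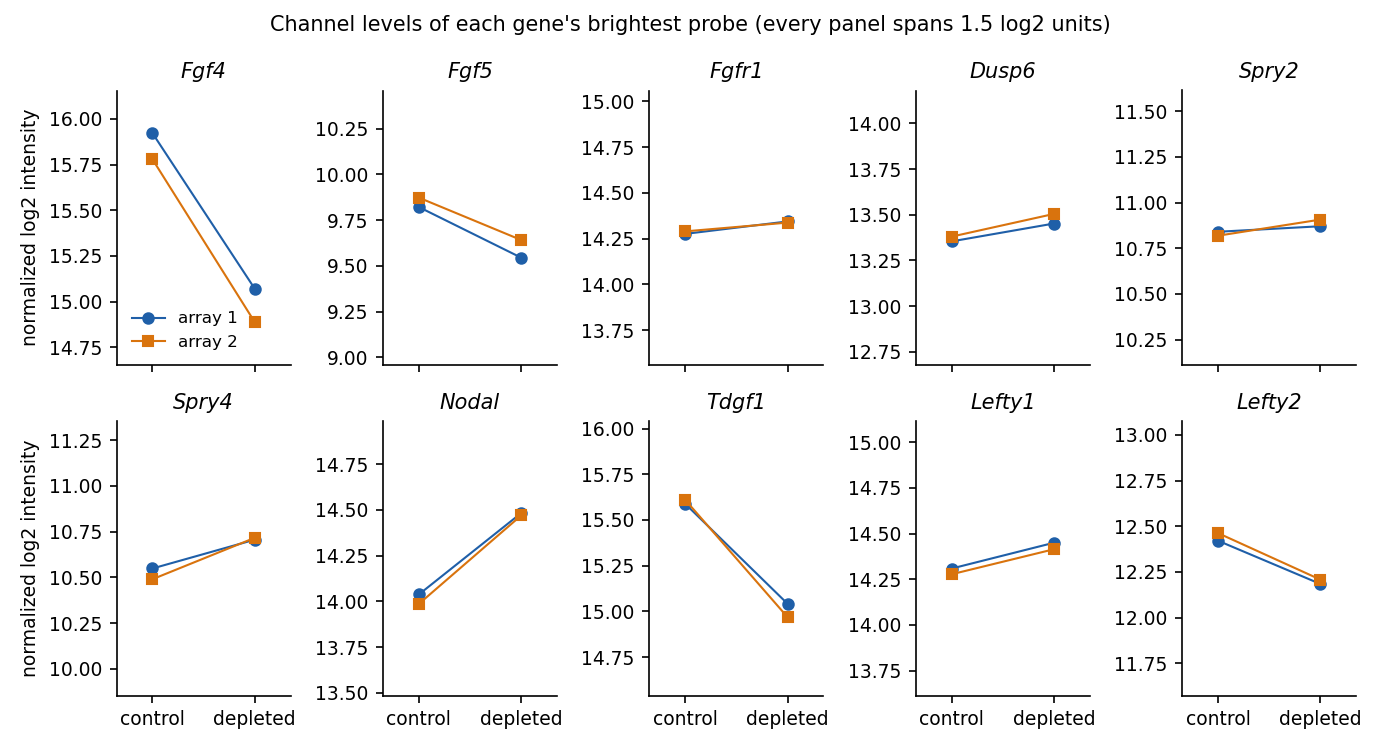
Normalized log2 intensity of the brightest probe of each gene in the control pool (left) and in AIMP3-depleted cells (right), with a line for each array. Every panel spans 1.5 log2 units, and levels are not comparable between panels. The lines slope down steeply for *Fgf4* and *Tdgf1*, slope up for *Nodal*, and are nearly flat for *Fgfr1* and *Spry2*.

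*Nodal* encodes the ligand of its pathway. Its control levels were 14.04 and 13.99, and its AIMP3-depleted levels 14.48 and 14.47. Both AIMP3-depleted samples lay well above both control readings. The log2 ratios were 0.44 and 0.48, with a mean of 0.46 ± 0.027 (SD, n = 2), which is 1.38-fold higher and the highest among the 10 genes. Under median centring the log2 ratio of *Nodal* was 0.78, past 1.5-fold, and 0.60 relative to the median of all genes, against 0.45 under loess.

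*Tdgf1* encodes Cripto, the EGF-CFC co-receptor that Nodal needs to engage its receptors. On its brightest probe the control levels were 15.59 and 15.61, and the AIMP3-depleted levels 15.04 and 14.97. A second probe read 13.88 and 13.84 in the control and 13.35 and 13.19 in AIMP3-depleted cells. The third read 13.17 and 13.07 in the control and 12.62 and 12.44 in AIMP3-depleted cells. On every probe both AIMP3-depleted samples lay below both control readings, and under loess the probes gave nearly the same mean ratio. Their mean log2 ratios were -0.59 ± 0.067, -0.59 ± 0.085 and -0.59 ± 0.055 (SD, n = 2). The range of these means was 0.0025, less than the SD of each probe, where the median range of genes with exactly 3 probes was 0.20. The brightest probe, which stands for the gene, was 1.51-fold lower, just past the 1.5-fold line. The array of replicate 1 alone gave a log2 ratio of -0.55, short of that line, and the array of replicate 2 alone gave -0.64. The brightest probe gave -0.55 with the scanner's processed signals and -0.51 with the deposited table, both short of the line. With the processed signals the second probe gave -0.53 and -0.69 on the 2 arrays, and the third -0.58 and -0.68. In the deposited table they gave -0.49 and -0.65, and -0.54 and -0.64. Under median centring the log2 ratio of the brightest probe was -0.20, and -0.38 relative to the median of all genes.

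The ligand and its co-receptor thus lay on opposite sides of the control. The log2 ratio of *Nodal* exceeded that of *Tdgf1* by 0.99 for replicate 1 and by 1.12 for replicate 2.

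*Lefty1* and *Lefty2* encode secreted antagonists that bind Nodal and its co-receptor. The *Lefty1* control levels were 14.31 and 14.28, and the AIMP3-depleted levels 14.45 and 14.41. The AIMP3-depleted samples were slightly above the control on both arrays, with log2 ratios of 0.14 and 0.14 and a mean of 0.14 ± 0.0029 (SD, n = 2). The *Lefty2* control levels were 12.42 and 12.46, and the AIMP3-depleted levels 12.18 and 12.21. *Lefty2* was below the control on both arrays, with log2 ratios of -0.24 and -0.25 and a mean of -0.25 ± 0.013 (SD, n = 2). Under median centring the log2 ratio of *Lefty1* was 0.47 and that of *Lefty2* was -0.015, near 0, which is 0.29 and -0.20 relative to the median of all genes. Under loess the difference between the 2 genes was 0.38 for replicate 1 and 0.39 for replicate 2. *Lefty1* and *Lefty2* are similar genes, and the files do not say how far a probe for one also binds the other's transcript.

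The promoter sequences of the genes with the largest log2 ratios, *Fgf4*, *Tdgf1* and *Nodal*, are shown because they differ widely in base composition. They were taken from a table of RefSeq promoters on GRCm38.p6, in which 6 of the 10 genes were matched (*Fgf4*, *Fgf5*, *Dusp6*, *Spry2*, *Nodal* and *Tdgf1*). Each runs 5′ to 3′ on the strand of the gene and covers the 250 bases before its start, and capitals mark matches to the motifs searched.
*Fgf4*, chr7:144861136-144861385, plus strand: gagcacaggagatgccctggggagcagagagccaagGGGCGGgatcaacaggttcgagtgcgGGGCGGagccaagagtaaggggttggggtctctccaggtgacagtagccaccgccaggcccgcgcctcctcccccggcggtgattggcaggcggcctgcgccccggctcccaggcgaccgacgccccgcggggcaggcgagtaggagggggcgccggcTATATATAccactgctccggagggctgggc
*Tdgf1*, chr9:110946159-110946408, minus strand: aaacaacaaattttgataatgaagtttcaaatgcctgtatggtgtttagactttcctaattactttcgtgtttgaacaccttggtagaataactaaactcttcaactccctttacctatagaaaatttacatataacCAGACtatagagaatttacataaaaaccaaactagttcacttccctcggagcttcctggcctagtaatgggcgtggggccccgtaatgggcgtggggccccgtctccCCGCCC
*Nodal*, chr10:61417722-61417971, plus strand: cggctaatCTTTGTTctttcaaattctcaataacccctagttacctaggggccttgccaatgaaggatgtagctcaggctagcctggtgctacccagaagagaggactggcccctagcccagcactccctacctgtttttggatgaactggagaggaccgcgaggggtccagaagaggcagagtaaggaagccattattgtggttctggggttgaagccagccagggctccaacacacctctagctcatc

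The GC content of these stretches was 71.2% for *Fgf4*, 42.0% for *Tdgf1* and 53.2% for *Nodal*, where the median over the 32851 promoters of the table was 52.4%. The motifs were searched on both strands. A GC box (GGGCGG) was found at 2 places in *Fgf4* and at 1 in *Tdgf1*, and in 32.7% of all promoters. The repeat TATATA, which was chosen after the *Fgf4* sequence was read, begins 30 bases before the *Fgf4* start and again 28 bases before it in an overlapping match, and 5.25% of all promoters hold it. The SMAD core CAGAC was found in *Tdgf1* and in 42.2% of all promoters, and the SOX motif CNTTGTT in *Nodal* and in 12.1%.

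The ETS motif CCGGAA was found in 1 of the 6 promoters, that of *Fgf5*, and in 12% of all promoters. The octamer ATGCAAAT, the FOXH1 motif AATNCACA and the TATA box TATAAA were in 0 of the 6, and in 1.60%, 3.18% and 12.4% of all promoters. The match of *Fgf4* to the GC box was shared with *Fgf5* and *Tdgf1*, and no searched motif was shared by *Tdgf1* and *Nodal*. A match is a string of letters and not a measured binding site, and the arrays hold no measurement of these promoters.

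The other genes of the FGF-ERK pathway came from a list of 60 genes, of which 52 were measured. The remaining 8, all ligands, were not well above background in either channel on both arrays. Of the 52, 4 rose and 1 fell in AIMP3-depleted cells (9.62%, where 6.32% of all genes did), and their median log2 ratio was 0.083 beside 0.015 over all genes. An adjusted p under 0.05 by limma adds nothing to these calls, since each of the 1517 called genes had one (the largest was 0.0372), as did 54.2% of all genes at any fold.

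Among 12 measured ligands, *Fgf7* and *Fgf18* rose and *Fgf15* fell. *Fgf7*, which encodes a ligand that mesenchymal cells make for epithelia, had log2 ratios of 1.29 and 1.24, with a mean of 1.26 ± 0.032 (adjusted p = 3.54e-05, limma). *Fgf18*, which acts on cartilage and bone, had a mean log2 ratio of 0.69 ± 0.13 (adjusted p = 0.000228, limma), and its other probe gave 0.60. The methods' t-test did not call *Fgf18* (unadjusted p = 0.0837). *Fgf15*, the endocrine FGF of the gut and an FGF of the embryonic brain, fell by 0.73 ± 0.052 on the log2 scale (adjusted p = 9.58e-05, limma). Under median centring the log2 ratio of *Fgf15* was -0.57, which ends its call, and -0.75 relative to the median of all genes. *Fgf23*, named after its values were seen, was at 0.63 there, but at 0.45 relative to that median, short of 1.5-fold.

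Among the 4 other receptor genes none was called. At any fold, 4 had an unadjusted p under 0.05 by limma and 2 by the methods' t-test, where 60.5% and 24.5% of all genes did. The largest ratio among them was that of *Fgfr2*, at -0.18 ± 0.062 (adjusted p = 0.0175, limma). Of 19 measured transducers, from the adaptors to ERK itself, none was called either, with 16 at an unadjusted p under 0.05 by limma and 7 by the methods' t-test, against those same shares of all genes. The largest of these ratios was 0.48 ± 0.062 for *Frs2*, the docking protein that couples FGF receptors to Ras (adjusted p = 0.000436, limma). The measured receptors and transducers thus all lay within 1.5-fold under loess. Under median centring *Frs2* was at 0.72 and *Ptpn11*, named after its values were seen, at 0.75, but relative to the median of all genes they were at 0.54 and 0.57, short of 1.5-fold.

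Among 17 other feedback genes and targets, *Phlda1* and *Fosl1* rose. *Phlda1* had a mean log2 ratio of 1.60 ± 0.13 (adjusted p = 3.54e-05, limma), which is 3.02-fold. *Fosl1*, which encodes the AP-1 subunit FRA1, had a mean log2 ratio of 0.91 ± 0.029 (adjusted p = 5.09e-05, limma), and 1.49 with the processed signals and 1.53 with the deposited table. Those same settings also called *Dusp5* (0.78 and 0.82) and *Spred3* (0.84 and 0.88), which encode inhibitors of ERK signalling. In those settings 11.3% and 11.4% of all genes were called. Median centring, where 12% of all genes were called, also called *Ccnd1* (0.78, and 0.60 relative to the median of all genes) and *Dusp4* (0.67, and 0.49 relative to it, short of 1.5-fold). These 4 genes were named after their values were seen. The ETS factor genes that respond to FGF in mESCs were among the 15 not called under loess. *Spry1*, chosen after its values were seen because it belongs to the Sprouty family with *Spry2* and *Spry4*, had log2 ratios of -0.31 and -0.31 (adjusted p = 0.00164, limma). *Spry1*, *Spry2* and *Spry4* thus had ratios of both signs, all within 1.5-fold.

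**Figure D3:**
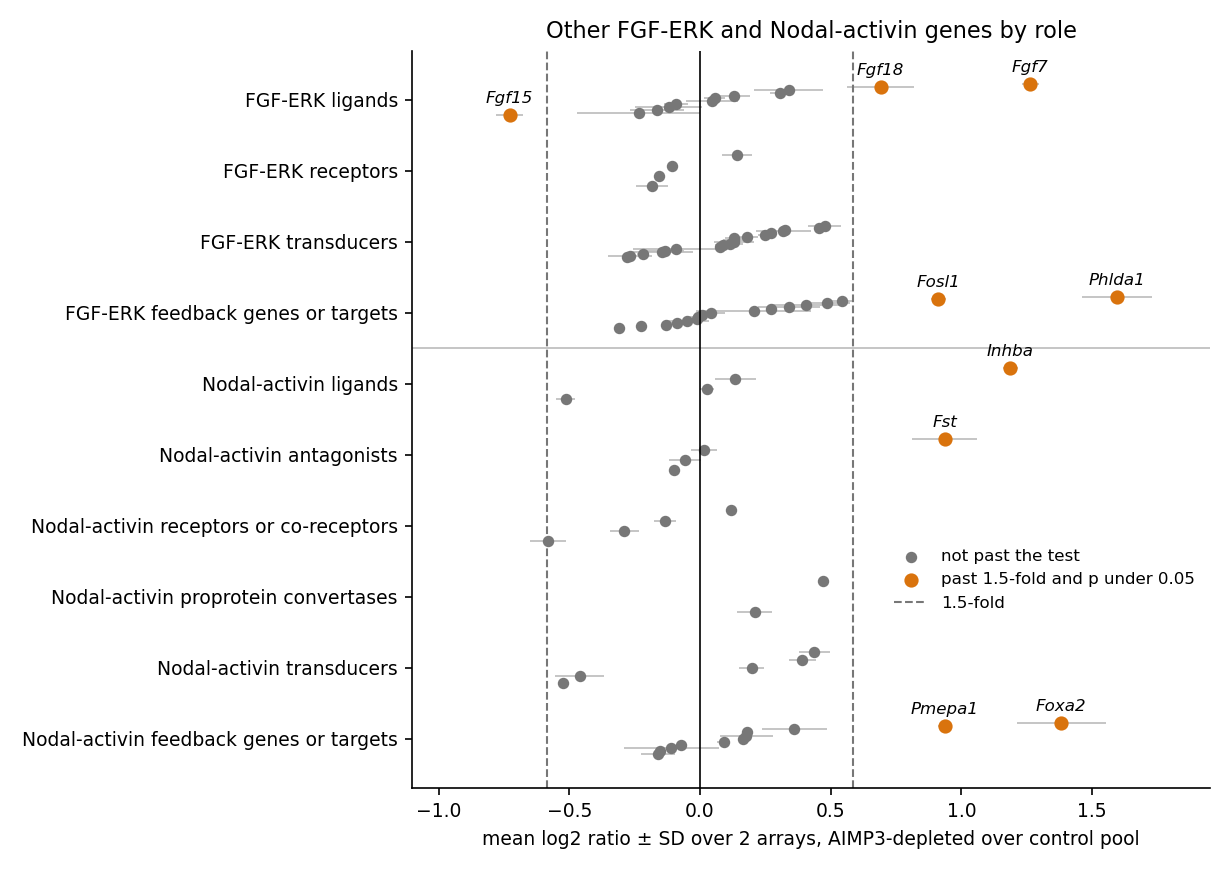
Mean log2 ratio of AIMP3-depleted cells over the control pool for the measured genes of the FGF-ERK list (52) and the Nodal-activin list (30), without the 10 genes described first. Bars are the SD over 2 arrays, dashed lines mark 1.5-fold, and vertical steps within a role only separate points. The 9 named points are past 1.5-fold with p under 0.05 by limma, 8 higher and 1 (*Fgf15*) lower.

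The other genes of the Nodal-activin pathway came from a list of 33 genes, of which 30 were measured. *Mixl1*, *Cer1* and *Acvr1c* were not well above background on both arrays. Of the 30, 4 rose and none fell (13.3%, where 6.32% of all genes were called), and their median log2 ratio was 0.10 beside 0.015 over all genes.

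Among 4 ligand genes, *Inhba* rose. It encodes the subunit of activin A, a ligand that shares its receptors with Nodal, and its log2 ratios were 1.17 and 1.21, with a mean of 1.19 ± 0.030 (adjusted p = 3.54e-05, limma). Among 4 antagonists, *Fst* rose, with a mean log2 ratio of 0.94 ± 0.12 (adjusted p = 8.26e-05, limma). *Fst* encodes follistatin, which binds and neutralizes activin, so an activin gene and its inhibitor were both higher. The methods' t-test did not call *Fst* (unadjusted p = 0.0596).

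Among 11 feedback genes and targets, *Foxa2* and *Pmepa1* rose. *Foxa2*, a transcription factor gene of the endoderm, had a mean log2 ratio of 1.38 ± 0.17 (adjusted p = 4.93e-05, limma), and its other probe gave 1.05. The methods' t-test did not call *Foxa2* (unadjusted p = 0.0554). *Pmepa1*, which encodes an inhibitor of SMAD signalling, had a mean of 0.94 ± 0.028 (adjusted p = 4.93e-05, limma), and its other probe gave 0.78.

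None of the 4 receptors and co-receptors, the 2 convertases or the 5 transducers was called. At any fold, limma gave all of them an unadjusted p under 0.05, as it did 60.5% of all genes. The methods' t-test gave 0 of the receptors, 1 convertase and 1 transducer such a p, and 24.5% of all genes. The largest ratio among the receptors was that of *Acvr2b*, a type II activin receptor gene, at -0.58 ± 0.068 (adjusted p = 0.000224, limma). It was 1.497-fold lower, just short of the line that *Tdgf1* passed, and the array of replicate 2 alone gave -0.63. *Furin*, which encodes a protease that processes the Nodal precursor, had 0.47 ± 0.0020 (adjusted p = 0.000354, limma). *Trim33*, which encodes a SMAD-binding chromatin protein, had -0.52 ± 0.021 (adjusted p = 0.000244, limma). Under median centring *Furin* reached 0.69, past 1.5-fold, and 0.51 relative to the median of all genes. The transducers *Smad4* (0.67) and *Smad3* (0.62) and the feedback gene *Smad7* (0.59), named after their values were seen, also passed it there. Relative to that median they were at 0.49, 0.44 and 0.41, so none of these, *Furin* included, was past 1.5-fold on that scale. These are values of the brightest probes. Under loess the brightest *Smad4* probe was at 0.44 and its other probe at 0.070, and those of *Smad3* were at 0.39 and 0.53.

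Markers of mESCs and of other cell types were read beside these genes. All 6 mESC markers were well above background in both groups, their log2 ratios ran from -0.53 to 0.33 with a median of -0.26, and none was called. Of the 6, 2 had a positive and 4 a negative ratio, where 52.7% and 47.3% of all genes did. At any fold, 6 had an unadjusted p under 0.05 by limma and 2 by the methods' t-test, where 60.5% and 24.5% of all genes did. The summed level of the list, in log2 units, was 15.34 to 15.35 in the control and 15.27 to 15.28 in AIMP3-depleted cells. This sum weighs the brightest marker most, which was *Esrrb* (control level 14.23, log2 ratio 0.12), and *Tfcp2l1* was also higher (0.33). *Sox2* (-0.53), *Pou5f1* (-0.48), *Nanog* (-0.38, and 0.064 on its other probe) and *Zfp42* (-0.15) were lower. Of 12 fibroblast markers, 11 were measured (*Lum* was not well above background), all 11 had a positive ratio and 7 rose by limma, where 52.7% of all genes had a positive ratio and 5.52% rose, and the methods' t-test called 5. Their summed level was 14.33 to 14.38 in the control and 15.19 to 15.21 in AIMP3-depleted cells. Of 12 extraembryonic endoderm markers, all were measured, all had a positive ratio and 11 rose by limma, against the same shares of all genes, and the methods' t-test called 9. Their summed level was 17.75 to 17.79 in the control and 18.74 to 18.76 in AIMP3-depleted cells.

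Fibroblast and endoderm markers thus moved in the same direction as *Fgf7*, *Fgf18*, *Phlda1*, *Fosl1*, *Inhba*, *Fst*, *Foxa2* and *Pmepa1*, and their part in those results, or in the lower *Fgf4* and *Tdgf1*, was not tested.

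**Figure D4:**
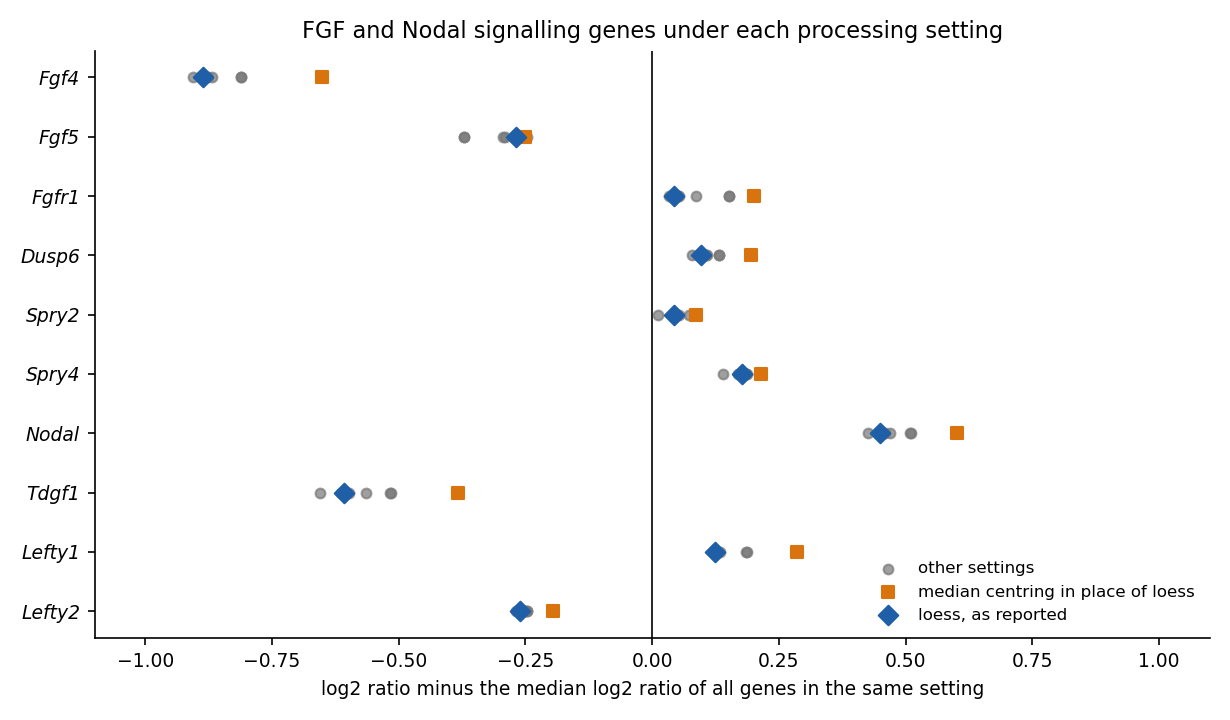
Log2 ratio of each of the 10 genes minus the median log2 ratio of all genes in the same processing setting, with a diamond for loess, a square for median centring and grey circles for the 8 other settings. Every gene keeps its side of 0 in each setting drawn. *Fgf4* runs from -0.91 to -0.65, *Tdgf1* from -0.66 to -0.38 and *Nodal* from 0.43 to 0.60.

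Relative to the median of all genes, each of the 10 genes kept its sign under all 9 alternatives. *Fgf5* ran from -0.37 to -0.25 on this scale, *Lefty2* from -0.27 to -0.20 and *Lefty1* from 0.12 to 0.29. *Spry4* ran from 0.14 to 0.21 and *Dusp6* from 0.079 to 0.19. *Spry2*, from 0.012 to 0.086, and *Fgfr1*, from 0.033 to 0.20, came closest to the median of all genes.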

How the data were processed

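AIMP3-depleted and control mESC RNA was compared on 2 Agilent arrays. The authors deposited the median intensity per spot and per local background, measured and not normalized by Feature Extraction (11.5.1.1 per the file headers, another version than the methods name, on array build mm9). The processed intensities that the authors deposited beside them had been background-subtracted and dye-normalized by that software. They also deposited log10 values of Cy5 over Cy3 that the authors' software computed from the processed signals, with their errors and flags. The deposited value table holds log2 ratios that the authors normalized in GeneSpring. It equalled the log2 ratio of the processed signals plus 0.040 and 0.039, within 0.01 for 99.8% of probes, so its scale, centring and direction are known, and its medians were 0.091 and 0.11.

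Median signals were corrected with limma's normexp (offset 50) and normalized by loess within each array, and control spots and outlier spots (215 and 227) were left out. Probes had to be well above background in 1 or both channels of each array, which 33012 of 55681 were, and 33010 of these had a value on both. The median signal over background was 2.68 and 2.72 in Cy3 and 3.31 and 2.93 in Cy5. Accessions were named through RefSeq (GRCm38.p6), for 31014 of 59305 spots, and unmatched spots keep their own names. A gene is represented by its brightest probe.

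The mean log2 ratio was tested against 0 with lmFit and eBayes (1 residual and 5.24 prior degrees of freedom), which leaves out the spread between control cultures. A gene was called when over 1.5-fold with an unadjusted p under 0.05, the threshold of the methods, and p-values were adjusted over all 24021 genes by the Benjamini-Hochberg method. Every gene over 1.5-fold met the p. The 10 genes and the lists were chosen with earlier results of these data known. Named by rule besides the 10 were *Eef1e1*, each called list gene and, in roles without a call, the gene with the largest absolute ratio. The mESC markers and some unmeasured genes are named too. Further genes were named after their values were seen, as said where they appear. The steps were tested on simulated data. Alternatives were other background, dye, filter, probe, fold and test choices, the deposited table, and each replicate left out. Software was R 4.3.3 with limma 3.58.1, jsonlite 2.0.0 and data.table (1.17.8).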

Additional observations from a re-analysis of the deposited data

How the results depend on the processing

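With only 2 arrays and 1 control pool, the spread between control cultures is not measured, and the dyes were not swapped. The number of the 10 genes past 1.5-fold was 2. It was 1 with the processed signals and with the deposited table (*Fgf4* in both), 1 under median centring (*Nodal*, higher, while *Fgf4* and *Tdgf1* fell short), and 0 at a 2-fold threshold, and it ran from 1 to 2 with a replicate left out. Of the 90 values of these genes under the alternatives, 25 moved by more than 1 SD and 0 changed sign. The values with a replicate left out could not move that far, since dropping 1 of 2 arrays always shifts the mean by less than 1 SD. Median centring called 12% of all genes, against 6.32%. The 5 calls in the FGF-ERK list were 9 under median centring, of which 4 were shared, 2 at a 2-fold threshold, and 4 by the methods' t-test. With either replicate left out 5 were past 1.5-fold, a count by fold only, since 1 array gives no p. The 4 calls in the Nodal-activin list were 8 under median centring, all 4 included, 2 at a 2-fold threshold, and 2 by the methods' t-test. With a replicate left out 4 to 5 were past 1.5-fold, again by fold only. After Benjamini-Hochberg adjustment, an alternative chosen after seeing the data, the methods' t-test called 0 genes in either list and 0 of all genes, against 992 of all genes before adjustment, and limma called 5 and 4. The causes were not tested. The other alternatives left both list counts within 1.5 times.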

Other observations

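*Gdf1*, which encodes a TGF-β family ligand related to Nodal, was named after its values were seen because its probes disagreed. Its brightest probe had log2 ratios of -0.54 and -0.49, with a mean of -0.51 ± 0.036, and its other probe had a mean of 0.59.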
